A study of Homo sapiens with 15 samples.

Results

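RNA from 46 genes that encode subunits of chromatin remodelling complexes was examined in RNA immunoprecipitates of Brg1 and Sfpq. Chromatin remodellers are ATPase motors that slide, eject or exchange nucleosomes, and each family couples a motor of the SNF2 type to its own set of accessory subunits. Brg1, the product of SMARCA4, is the motor of SWI/SNF complexes. Sfpq is a nuclear RNA-binding protein of paraspeckles that takes part in splicing and transcription. In RNA immunoprecipitation, an antibody draws its protein out of a cell lysate together with the RNA attached to it, and the recovered RNA is sequenced.

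The genes were taken as a list by name: 11 SWI/SNF accessory subunits, 7 ISWI genes, 6 CHD genes, 11 genes of the nucleosome remodelling and deacetylase complex (NuRD), 8 genes of the INO80, SRCAP and EP400 complexes, and 3 other SNF2-type genes. They account for 46 of 14296 genes in the 22Rv1 table and 46 of 14176 in the LNCaP table. Many genes have a pair of rows, a plain row and a row with the suffix .primary, whose meaning is not stated. All 46 genes have a plain row and 41 have a .primary row, which gives 87 rows in each table. Reads that match both rows of a gene may have been divided between them by estimation, so the 2 rows are uncertain relative to each other. BCL7C, BAZ2B, BPTF, CHD4 and CHD8 have a plain row only. CHD3 and CHD4 were counted under NuRD and not among the 6 CHD genes.

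Both lines, 22Rv1 and LNCaP, are established human prostate cancer lines grown without a treatment, and cells were fixed in formaldehyde before the precipitation. In 22Rv1 there were 2 libraries with the Brg1 antibody (Abcam ab110641), 2 with the Sfpq antibody (Genetex GTX114209), 3 with non-specific IgG (Sigma I5006) as background and 2 of input RNA, the RNA before precipitation. In LNCaP there were 2 libraries each of Brg1, IgG and input. Nothing in the labels says whether the lettered replicates came from separate cultures, so p-values measure the spread between these libraries only. Values are shares of a library in reads per 1000000 reads (RPM), from reads recovered out of the deposited normalized counts.

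The libraries differed in depth, and the IgG libraries stood apart. Recovered reads ran from 7139669 to 47871438 in the antibody and input libraries of 22Rv1 and from 6367908 to 7506724 in those of LNCaP. IgG libraries held 490879 to 4424105 reads in 22Rv1 and only 22184 and 46297 in LNCaP. SMARCA4, the gene of the antibody's target, took 12446 and 16356 RPM in the Brg1 libraries of 22Rv1 against 310 and 296 RPM in input, and 12763 and 10406 RPM against 211 and 218 RPM in LNCaP. IgG replicate A of LNCaP carried 7212 RPM of SMARCA4 (160 reads) and replicate B carried 194 RPM (9 reads), so replicate A goes against its label as background for that gene. Of 7 prostate luminal marker genes, 4 had a row in 22Rv1 with a summed input share of 173 and 176 RPM. All 7 had one in LNCaP, with 4430 and 4291 RPM. Of 3 leukocyte markers none had a row in either table.

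Remodeller RNA took its largest share in the Sfpq libraries. The 87 rows together held 11811 and 11628 RPM there, against 7265 and 7235 RPM in input and 6185 and 6288 RPM in the Brg1 libraries of 22Rv1. IgG gave 5881, 6904 and 8293 RPM, a spread that covers both input and Brg1 but lies below Sfpq. In LNCaP the input libraries held 5425 and 5082 RPM and the Brg1 libraries 5026 and 5094 RPM, which differ by less than the spread between the inputs.

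Plain and .primary rows ran in opposite directions. In 22Rv1 the plain rows held 9674 ± 405 RPM in Sfpq (SD, n = 2), 4793 ± 192 RPM in input (SD, n = 2) and 3342 ± 215 RPM in Brg1 (SD, n = 2). The .primary rows held 2045 ± 276 RPM in Sfpq, 2457 ± 214 RPM in input and 2895 ± 141 RPM in Brg1 (SD, n = 2 each). The .primary rows thus made up 17.5% ± 2.55 of remodeller reads in Sfpq, 33.9% ± 2.84 in input and 46.4% ± 2.81 in Brg1 (SD, n = 2 each). Over all reads of the same libraries the .primary rows made up 30.4% ± 4.20, 36.5% ± 2.44 and 64.2% ± 2.07 (SD, n = 2 each), so the order of the groups is that of the whole libraries. In LNCaP they made up 42.2% ± 3.29 of remodeller reads in input and 42.2% ± 7.20 in Brg1, beside 38.7% ± 5.02 and 55.7% ± 6.86 of all reads (SD, n = 2 each). In IgG of 22Rv1 they made up 43.3%, 43.9% and 30.2% of remodeller reads, so IgG A and B lay near the lower Brg1 library, at 44.4%. Over all reads of IgG in 22Rv1 the value was 53.7% ± 12.7 (SD, n = 3). IgG of LNCaP gave 57.9% and 58.9%, from only 159 and 236 remodeller reads.

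**Figure D1:**
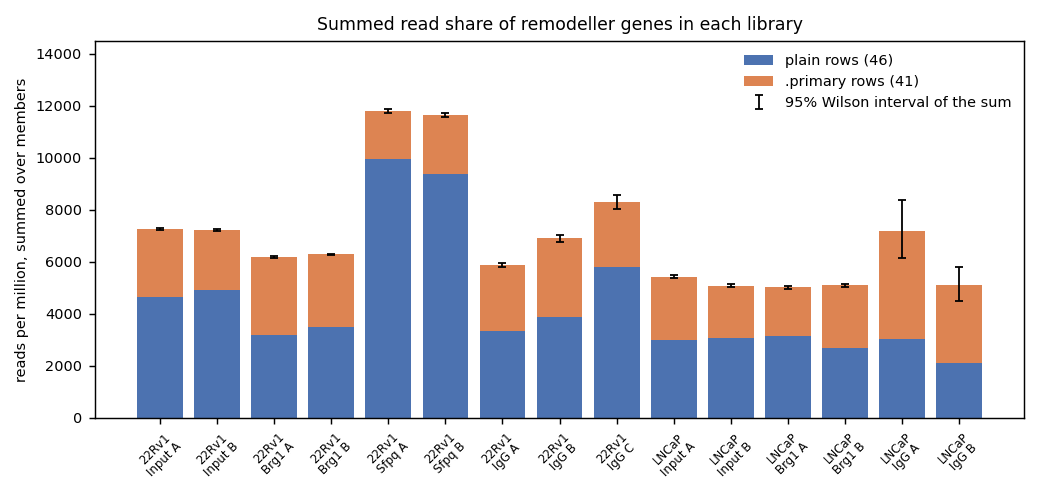
Summed share of the 46 remodeller genes in each library, in RPM, split into plain and .primary rows, for 22Rv1 and LNCaP, with 95% Wilson intervals of the sum that cover counting error only. The Sfpq libraries reach 11811 and 11628 RPM, mostly in plain rows, while input and Brg1 of 22Rv1 stay between 6185 and 7265 RPM.

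Because every library sums to the same total, these are changes of share. With the authors' own factors in place of the read total, the median change over all rows moved by -0.44 for Brg1 against input and by -0.53 for Sfpq against input in 22Rv1, and by -1.38 for Brg1 against input in LNCaP, on the log2 scale. With TMM scaling (trimmed mean of M values) it moved by 0.22, 0.14 and 0.08. Each fold change below is a difference of mean log2(RPM + 1) with its standard error (SE) from limma. In the 22Rv1 fits without IgG a row's own libraries gave 3 residual degrees of freedom. To these limma added 12.7 from the spread over all rows, and 18.1 from that over all genes for the ratios. Most of the error of each row was thus drawn from other rows. A row was called at a Benjamini-Hochberg adjusted p below 0.05 over all rows of its table.

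The Sfpq libraries held more plain-row RNA of remodeller genes than input, most of all for the CHD and ISWI genes. Of the 46 plain rows, 32 were higher and 2 lower (BCL7B and BCL7C), where 38.4% of all plain rows were called higher and 20.3% lower. Their median change was 0.91 on the log2 scale against 0.22 over all plain rows. Of the 41 .primary rows, 33 were lower and 5 higher, where 50.7% and 11.8% of all .primary rows were, and the median was -0.85 against -0.52. Over all 87 rows the calls were 37 higher and 35 lower, where 24.6% and 36.1% of all rows were called. At the authors' factors they were 4 and 30, and with TMM 40 and 30. Over all 22540 rows the authors' factors gave 461 higher and 6881 lower, and TMM gave 6675 and 6852.

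CHD7, a CHD-family motor, had the largest rise: its plain row was at 560 and 526 RPM in Sfpq against 140 and 136 RPM in input, a log2 change of 1.97 (SE 0.13, adjusted p = 3.49e-08, limma). The related CHD9 stood at 244 and 223 RPM against 58.1 and 65.2 RPM, a change of 1.90 (SE 0.14, adjusted p = 8.36e-08, limma). CHD8 stood at 712 and 689 RPM against 238 and 257 RPM, a change of 1.498 (SE 0.13, adjusted p = 5.15e-07, limma). All 6 plain CHD rows were called higher, from 1.18 for CHD1 to CHD7, with a median of 1.39. At the authors' factors the median was 0.87 and 2 of the 6 were called, and with TMM it was 1.54 and all 6 were. The IgG libraries held 47.0, 208 and 244 RPM of the plain CHD7 row, on both sides of input and all below Sfpq. CHD3 and CHD4, counted under NuRD, had mean plain-row shares of 274 and 649 RPM in Sfpq against 140 and 342 RPM in input.

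The ISWI family holds the motor SMARCA5 and the partners that set which nucleosomes it acts on. All 7 of its plain rows were higher in Sfpq, between 0.88 for SMARCA5 and 1.41 for BAZ2B, with a median of 1.12. At the authors' factors the median was 0.60 and 0 of the 7 were called, and with TMM all 7 were. SMARCA5 itself was at 224 and 177 RPM in Sfpq and 98.6 and 118 RPM in input. Its .primary row went the other way, with 6.30 and 6.39 RPM against 26.8 and 18.4 RPM, a log2 change of -1.66 (SE 0.20, adjusted p = 7.40e-06, limma). That row took 2.74% and 3.49% of SMARCA5 reads in Sfpq and 21.4% and 13.5% in input. In IgG it took 2.51%, 3.90% and 11.7%, all below input and overlapping Sfpq. Like SMARCA5, ARID2 and PBRM1, subunits of the SWI/SNF form called PBAF, had the plain row called higher and the .primary row called lower. In IgG the .primary row took 79.5%, 99.5% and 58.8% of ARID2 reads, against 24.1% and 27.1% in Sfpq. For PBRM1 it took 52.9%, 57.6% and 35.1% in IgG, against 9.83% and 12.0% in Sfpq. ARID2, a DNA-binding subunit, was at 186 and 164 RPM in its plain row against 42.6 and 52.1 RPM in input, a change of 1.87 (SE 0.16, adjusted p = 3.73e-07, limma). PBRM1, a subunit with several bromodomains, was at 24.1 and 27.6 RPM in its .primary row against 74.9 and 68.3 RPM, a change of -1.44 (SE 0.15, adjusted p = 1.78e-06, limma).

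The background for the other families was 38.4% of all plain rows higher and 20.3% lower, and 11.8% of all .primary rows higher and 50.7% lower. SWI/SNF accessory genes as a group gave 7 of 11 plain rows higher and 2 lower, the latter near the background. Of their 10 .primary rows, 8 were lower. NuRD, which joins a CHD motor to histone deacetylases and methyl-CpG-binding subunits, gave 7 of 11 plain rows higher and none lower. Of its 10 .primary rows, 6 were lower, near the background, and 3 higher. The 3 were MTA1, MBD3 and GATAD2A. MTA1, a scaffold subunit of NuRD, had a .primary row at 387 and 554 RPM in Sfpq against 201 and 176 RPM in input. Its plain row was at 164 and 172 RPM against 195 and 211 RPM and did not pass the test. In the INO80, SRCAP and EP400 complexes, which exchange histone variant H2A.Z, 4 of 8 plain rows were higher, near the background. All 8 .primary rows were lower. SRCAP, the motor of its complex, rose from 250 and 259 RPM to 745 and 825 RPM in its plain row, a change of 1.62 (SE 0.14, adjusted p = 3.38e-07, limma). INO80D, an INO80 subunit, stood at 141 and 139 RPM against 43.0 and 47.0 RPM, also a change of 1.62 (SE 0.14, adjusted p = 4.88e-07, limma). The plain-row median of this family was 0.52 and no longer above 0 at the authors' factors, and that of the other SNF2 genes turned from 0.26 to -0.26.

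**Figure D2:**
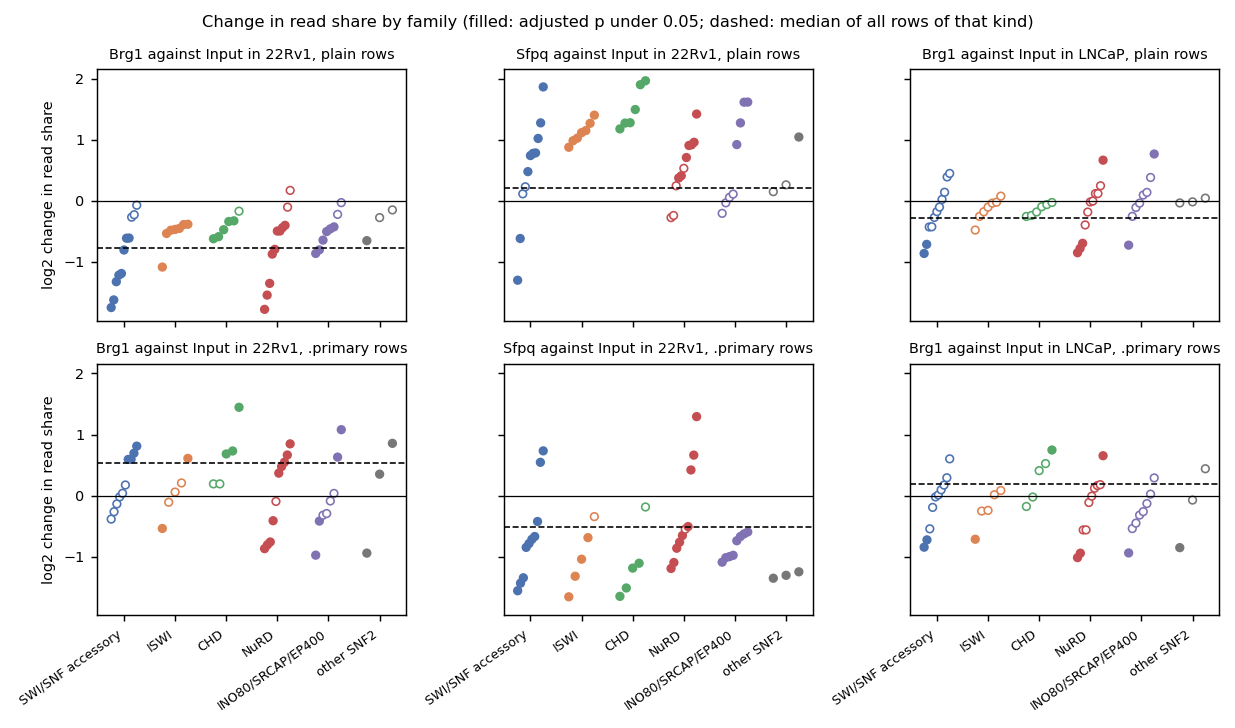
Log2 change of each plain and .primary row of the remodeller genes against input, by family, for Sfpq and Brg1 in 22Rv1 and Brg1 in LNCaP, with filled points for called rows and a dashed line at the median of all rows of that kind. Plain rows lie mostly above 0 for Sfpq and mostly below 0 for Brg1 in 22Rv1, and the CHD and ISWI plain rows all lie above 0 for Sfpq.

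In 22Rv1 the Brg1 libraries showed the reverse of this for plain rows. Of 46 plain rows, 36 were lower than input and none higher, where 74.3% of all plain rows were called lower and 2.43% higher. Their median change was -0.49, less far below 0 than the -0.77 of all plain rows. Of 41 .primary rows, 17 were higher and 8 lower, against 51.4% and 9.76% of all .primary rows, with a median of 0.17 against 0.53. The share of plain rows called lower is near that background, so the count is no result about remodeller genes in particular. Over all 87 rows the calls were 17 higher and 44 lower, where 27.8% and 40.8% of all rows were called. At the authors' factors they were 0 and 19 and the .primary median turned to -0.25, and with TMM they were 21 and 24. Over all 22540 rows the authors' factors gave 1356 higher and 6664 lower, and TMM gave 7507 and 6755. Without Brg1 A or without input B, 10 rows were called higher instead of 17, in fits where the lone library of a group is assumed to vary like the other groups.

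CHD7.primary rose most, from 107 and 98.3 RPM in input to 295 and 267 RPM in Brg1, a log2 change of 1.45 (SE 0.13, adjusted p = 2.84e-07, limma). IgG covered 106 to 275 RPM in this row, which reaches the lower Brg1 library. INO80C.primary, from an INO80 subunit gene, went from 9.76 and 13.7 RPM to 24.97 and 26.2 RPM, a change of 1.08 (SE 0.22, adjusted p = 0.00053, limma). SMARCAL1.primary, from the gene of a fork-remodelling enzyme, went from 34.7 and 29.6 RPM to 60.0 and 57.5 RPM, a change of 0.86 (SE 0.17, adjusted p = 0.000477, limma). CHD3.primary, counted under NuRD, was called lower. The genes counted as CHD gave 3 of 5 .primary rows higher and none lower, near the share of all .primary rows, with a median of 0.68 beside the 0.53 of all. At the authors' factors their median was 0.27 and 0 of the 5 were called, and with TMM it was 0.91 and all 5 were. The .primary medians of the other 5 families were between -0.19 and 0.35 and were all below 0 at the authors' factors.

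The largest falls were plain rows of NuRD and SWI/SNF accessory genes. MBD2, the NuRD subunit that binds methylated DNA, was at 2.19 and 2.59 RPM in Brg1 against 10.2 and 10.97 RPM in input, a log2 change of -1.78 (SE 0.24, adjusted p = 9.56e-06, limma). GATAD2A, which links the parts of NuRD, was at 36.4 and 33.8 RPM against 101 and 107 RPM, a change of -1.54 (SE 0.13, adjusted p = 1.47e-07, limma). Its .primary row moved the opposite way, with 274 and 260 RPM against 152 and 143 RPM, a change of 0.85 (SE 0.15, adjusted p = 0.000158, limma). All 3 BCL7 genes, small SWI/SNF subunits, fell in their plain rows: BCL7C from 45.3 and 41.2 to 10.6 and 14.0 RPM, BCL7B from 21.8 and 17.6 to 5.98 and 5.44 RPM, and BCL7A from 79.4 and 85.7 to 27.5 and 37.9 RPM. These plain rows were picked as the largest called falls, so the lack of overlap between their Brg1 and input libraries adds no support. Across genes, 14 of 41 had the plain row called lower and the .primary row called higher, 8 had both lower (BAZ1B, CHD3, EP400, GATAD2B, HELLS, MBD3, MTA2 and SRCAP) and none had both higher. Of all 8246 genes with both rows, 31.6% had the plain row lower and the .primary row higher and 10.1% had both lower, so the 14 genes are near that background.

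**Figure D3:**
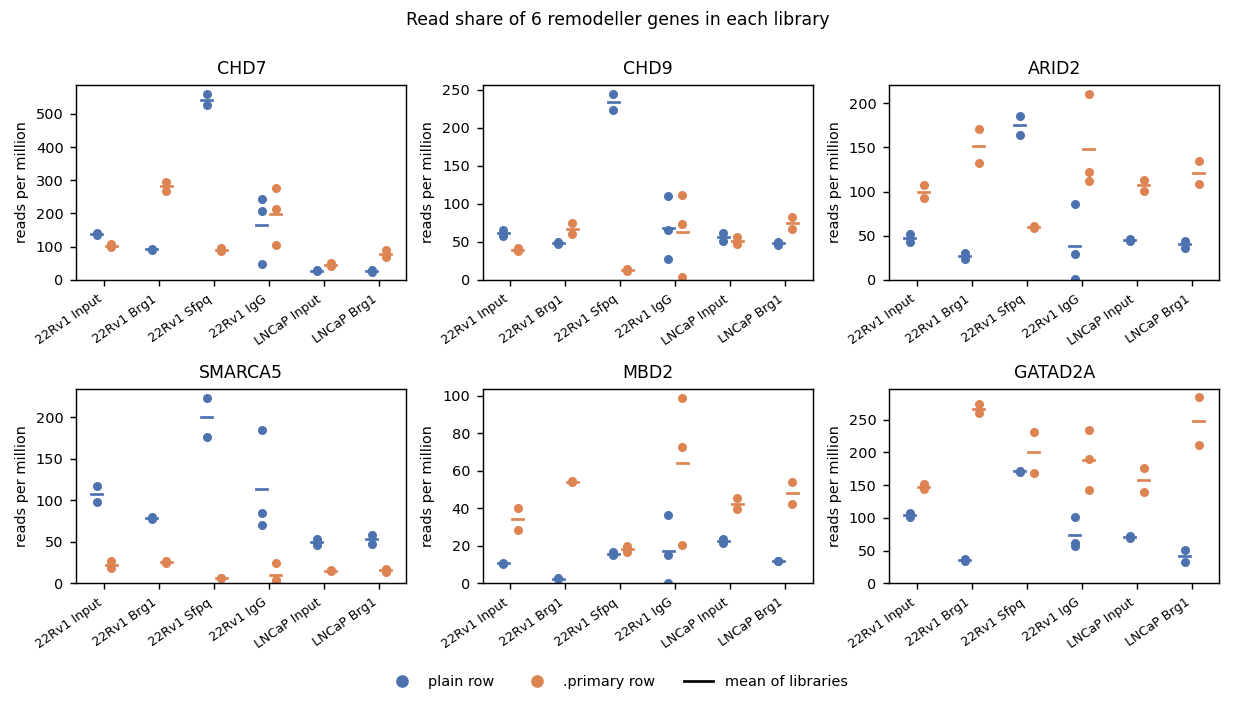
Share in RPM of the plain and .primary rows of CHD7, CHD9, ARID2, SMARCA5, MBD2 and GATAD2A in each library except LNCaP IgG, on linear axes from 0, with a line at each group's mean; the 6 genes were chosen after their values were seen. In Sfpq the plain rows of CHD7, CHD9 and ARID2 lie above input, and in Brg1 of 22Rv1 the plain row of MBD2 lies below it.

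The ratio of the 2 rows within a gene does not depend on the scaling of a library. In Brg1 of 22Rv1 it was higher than in input for 21 of 41 genes and lower for none, where 64.9% of the 8246 genes with both rows were called higher and 0.8% lower. The median log2 change was 0.67 for the remodeller genes and 1.16 over all 8246, and 31 of 41 lay below the latter. MBD2 led with 2.83 (SE 0.32, adjusted p = 2.47e-07, limma): its .primary row took 96.1% and 95.4% of the gene's reads in Brg1 against 79.7% and 72.02% in input. GATAD2A (2.42), BCL7A (2.17) and CHD7 (2.05) followed. SRCAP (-0.49, adjusted p = 0.100, limma) and HELLS, a SNF2-type enzyme needed for DNA methylation (-0.30, adjusted p = 0.308, limma), had the lowest values and did not pass.

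In Sfpq the ratio was lower for 35 of 41 genes and higher for 1, where 56.1% and 9.08% of genes were. The median was -1.69, against -0.97 over all genes, and 29 of 41 lay below the latter. CHD9 had the lowest value at -3.49 (SE 0.28, adjusted p = 2.17e-08, limma), with 4.71% and 6.12% of its reads in the .primary row against 41.7% and 36.8% in input. CHD2, also a CHD motor, followed at -2.99 and INO80D at -2.83. All 5 CHD and all 5 ISWI genes with both rows were called lower. The gene called higher was MTA1, at 1.57 (SE 0.26, adjusted p = 2.93e-05, limma), with 70.2% and 76.4% of reads in the .primary row against 50.8% and 45.5%.

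**Figure D4:**
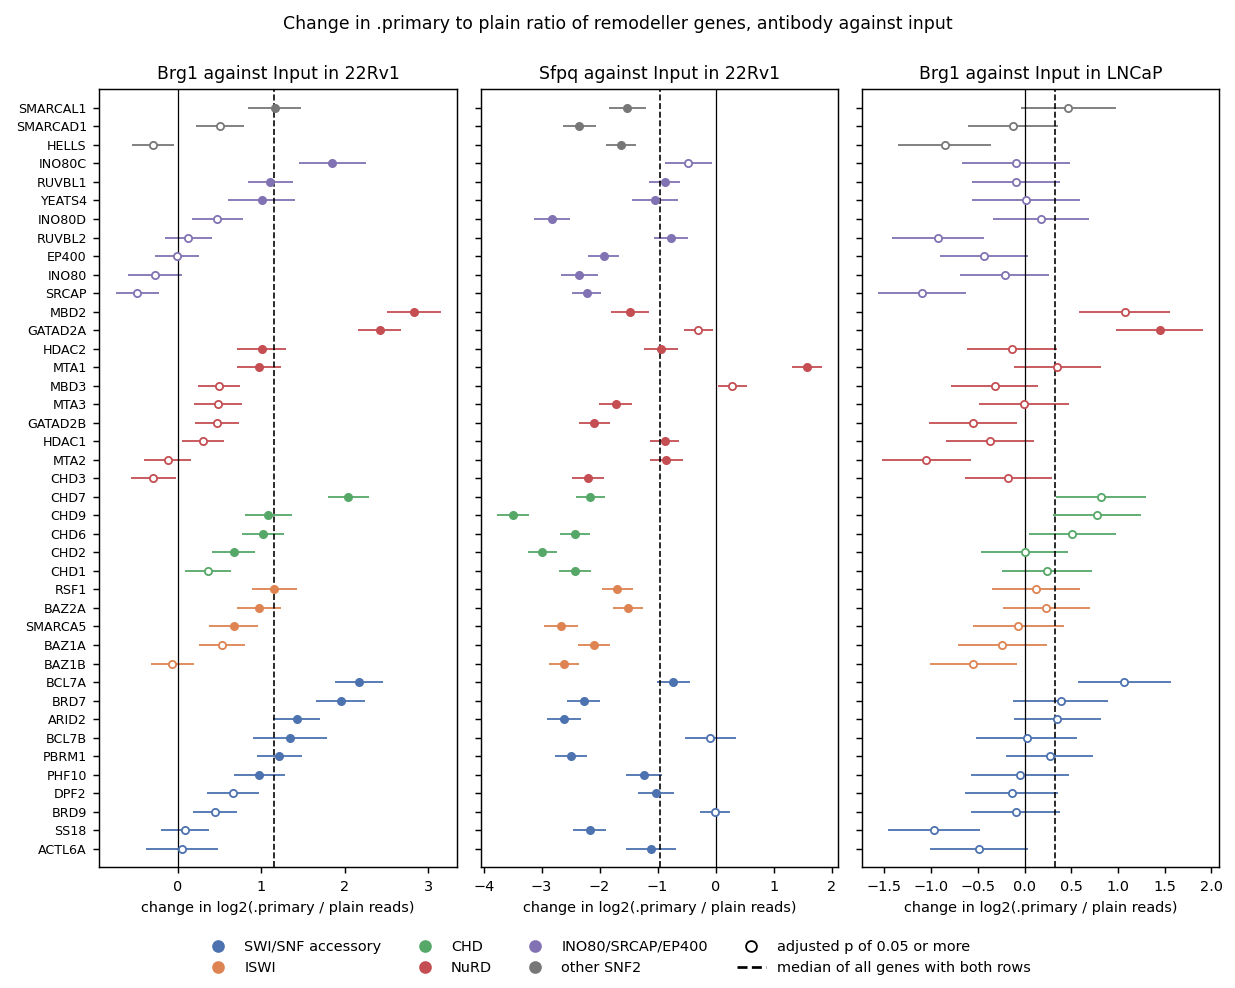
Log2 change of the .primary to plain ratio against input for the 41 remodeller genes with both rows, by gene and comparison, with SE bars, open points where the adjusted p was 0.05 or more and a dashed line at the median of all genes. Sfpq values lie mostly below 0 with MTA1 at 1.57, Brg1 values of 22Rv1 lie mostly above 0 with MBD2 at 2.83, and LNCaP values lie around 0.

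Set directly against each other in 22Rv1, Brg1 had the lower share in 40 of 46 plain rows and the higher share in none, where 70.7% and 4.97% of all plain rows were called. It had the higher share in 31 of 41 .primary rows and the lower in 4, where 72.8% and 7.99% were. ARID2 stood farthest apart among plain rows, with 23.5 and 30.0 RPM in Brg1 against 186 and 164 RPM in Sfpq, a log2 difference of -2.67. BRD7, a bromodomain subunit of PBAF, led the .primary rows with 20.2 and 15.9 RPM against 3.22 and 2.72 RPM, a log2 difference of 2.25. These Sfpq values rest on 23 and 20 reads, the fewest of any remodeller row in those libraries. The IgG libraries held 1, 2 and 7 reads of the BRD7.primary row. In 27 of 41 genes the plain row was called lower and the .primary row higher, where 56.4% of all genes with both rows were, and 5.94% had both lower. MBD3, a NuRD subunit related to MBD2, was lower in both, as were BRD9 and SRCAP. These values share their libraries with the comparisons against input.

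In LNCaP, Brg1 and input differed in a small part of the remodeller rows. Of 87 rows, 4 were higher and 13 lower, where 13% and 14% of all rows were called. The plain-row median was -0.08 against -0.28 over all plain rows, and the .primary median -0.07 against 0.18. The rows called higher were RUVBL2, an AAA+ ATPase shared by the INO80 and SRCAP complexes (76.5 and 52.5 RPM against 35.3 and 38.4 RPM, log2 change 0.77, SE 0.25, adjusted p = 0.0142, limma), CHD7.primary (0.75), CHD4, the motor of NuRD (0.67), and GATAD2A.primary (0.65). All 4 of these turned negative at the authors' factors. The largest falls were MBD3.primary, at 106 and 92.4 RPM against 200 and 204 RPM (log2 change -1.02, SE 0.26, adjusted p = 0.000943, limma), MTA2.primary (-0.95) and SRCAP.primary (-0.94).

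The plain row of GATAD2A in LNCaP was at 50.9 and 32.6 RPM in Brg1 against 68.6 and 72.7 RPM in input and was called lower. Its ratio was the only one of 41 called, at 1.45 (SE 0.47, adjusted p = 0.0203, limma), where 11.7% of 7993 genes were called higher and 1.39% lower. MBD2 stood at 12.1 and 12.1 RPM against 21.7 and 23.6 RPM and BCL7B at 10.7 and 6.35 RPM against 15.2 and 16.5 RPM, both called lower in their plain rows. The median ratio change was -0.07, against 0.32 over all genes. The 2 residual degrees of freedom of this fit were outweighed by the spread over all rows, which set the error of each row entirely. No test of a difference between 22Rv1 and LNCaP was made, since their tables carry separate factors. With the replicate letter as a block, 0 LNCaP rows of these genes were called and 8 had an unadjusted p under 0.05. Over all 22169 rows the blocked fit called 769 higher and 645 lower. It called 0 ratios of these genes, where 67 of 7993 genes were called higher and 20 lower. No ratio was called without Brg1 B or without either input library.

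Against IgG the calls were few in 22Rv1 and rested on near-empty libraries in LNCaP. In 22Rv1 BCL7B was higher in Brg1 and SRCAP lower, out of 87 rows, where 8.65% and 0.954% of all rows were called, and 6 rows had an unadjusted p under 0.05. The plain BCL7B row had 0, 1 and 0 reads in IgG A, B and C, so its call rests on a nearly empty row. With edgeR and TMM, 0 rows were called in either direction, and 5 had an unadjusted p under 0.05. Over all rows of 22Rv1 that fit called 1278 higher and 202 lower. For LNCaP the counts were 21 higher and 4 lower, where 44.1% and 2.72% of all rows were. Of the 21, 17 had 0 reads in both IgG libraries, so no fold change is given for them. Without IgG replicate A the LNCaP counts became 41 and 18, and without replicate B 43 and 28, each against a lone IgG library assumed to vary like the Brg1 and input libraries. In 22Rv1 they became 0 and 0 without either Brg1 library, 4 and 11 without IgG A, 7 and 6 without IgG B, and 13 and 3 without IgG C. At the authors' factors all 87 rows were higher in Brg1 than in IgG in both lines. So were 22487 of all 22542 rows in 22Rv1 and 22088 of 22169 in LNCaP, so the count is no result about remodeller genes. When the IgG libraries entered the fit of the antibody against input comparisons, 0 of these rows and ratios were called for Brg1 or Sfpq, with 4 rows for Brg1 and 15 for Sfpq at an unadjusted p under 0.05 in 22Rv1 and 3 in LNCaP. Over all rows that fit called 9 higher and 9 lower for Brg1 and 0 and 7 for Sfpq in 22Rv1, and 11 and 10 in LNCaP. The 0 is thus no result about remodeller genes.

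Genes of these complexes outside the list of 46 are given by counts. Of 11 SWI/SNF core genes, 8 plain rows were higher and 1 lower in Sfpq, and 6 were lower in Brg1 of 22Rv1, where SMARCA4 was the only one higher. Of 29 further subunit genes with a plain row in 22Rv1, 12 were higher and 6 lower in Sfpq, and 20 were lower and none higher in Brg1. Against the 38.4% of all plain rows higher in Sfpq and the 74.3% lower in Brg1, these plain-row counts of the further subunits are near the background. Their 23 .primary rows gave 17 lower and 1 higher in Sfpq, where 50.7% and 11.8% of all .primary rows were, and 7 higher and 1 lower in Brg1, where 51.4% and 9.76% were.

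Gene span, taken from RefSeq on GRCh38.p14, was a property that the list did not use. Across the 41 genes with both rows, the Spearman correlation of span with the Sfpq ratio change was -0.62, and across the 46 plain rows it was 0.60 with the Sfpq plain-row change. For the Brg1 ratio change it was 0.21 in 22Rv1 and 0.38 in LNCaP, and for the Brg1 .primary-row change 0.39 and 0.45. The input percentage of .primary reads also correlated with span, at 0.38 in 22Rv1 and 0.39 in LNCaP. These are descriptions across genes, whose points share libraries. The correlations were not computed over all genes, so they cannot tell whether remodeller genes differ from other genes in this. CHD9 spans 272.507 kb (chr16:53054991-53327497), ARID2 178.332 kb (chr12:45729706-45908037) and MTA1 50.903 kb (chr14:105419827-105470729). SMARCA5 spans 43.785 kb (chr4:143513702-143557486), GATAD2A 123.09 kb (chr19:19385843-19508932) and MBD2 73.064 kb (chr18:54151606-54224669).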

How the data were processed

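The deposited signal is a table of normalized counts per cell line, scaled separately by the authors. Every value was a whole multiple, within 0.001, of the smallest positive value of its library, which was taken as 1 read. How the authors chose their factors is not given in the sources used here. The submitters' processing notes name hg38, STAR 2.6, Salmon 0.8.2, deepTools 2.5.2 and DESeq2 without roles. Reads were turned into RPM, reads per 1000000 of the library total. The test was limma 3.58.1 in R 4.3.3 (lmFit, eBayes with trend) on log2(RPM + 1), for rows with a mean of at least 1 RPM, with Benjamini-Hochberg adjustment over all rows and no covariate. IgG libraries entered only the fits of comparisons with IgG. Row ratios were log2((.primary reads + 1)/(plain reads + 1)), for genes with a mean of at least 10 reads in both rows, with the trend on log2 mean reads. Scripts were tested on simulated data. Alternatives were pseudocounts, no filter, other scalings, edgeR 4.0.16, the replicate letter as a block, all groups in the fit and each library left out.

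The members and gene lists were chosen with earlier results of these data known. Fold changes are named for called rows, at most the 6 largest per direction against input, and for the highest and lowest row of each family in Brg1 against input, and likewise for ratios. Folds named outside that rule were chosen after their values were seen: the lowest CHD and the lowest and highest ISWI rows in Sfpq, and the leading rows of Brg1 against Sfpq. The plotted 95% Wilson intervals of summed shares cover counting error only, which is small beside the spread between libraries except in IgG of LNCaP. Sequences were not used here.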

Additional observations from a re-analysis of the deposited data

How the results depend on the processing

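Counts of remodeller rows are given as higher and lower. At the authors' factors they were 0 and 19 for Brg1 against input in 22Rv1, 4 and 30 for Sfpq against input, 21 and 29 for Brg1 against Sfpq, 0 and 83 for Brg1 against input in LNCaP, and 87 and 0 for Brg1 against IgG in each line. Over all 22540 rows of 22Rv1, Brg1 against input gave 1356 and 6664, Sfpq against input 461 and 6881, and Brg1 against Sfpq 6725 and 4988. Over all 22169 rows of LNCaP, Brg1 against input gave 52 and 18255. At these factors RUVBL2 (-0.59), CHD7.primary (-0.62), CHD4 (-0.70), GATAD2A.primary (-0.72), BCL7A.primary (-0.74), RSF1.primary (-1.29) and SMARCAL1.primary (-0.92) reversed in LNCaP. With TMM scaling and with edgeR, Brg1 against input in 22Rv1 gave 24 lower, where 6755 and 6722 of all rows were lower. With TMM, Brg1 against IgG in LNCaP gave 1 lower, where 295 of all rows were. With edgeR, Brg1 against IgG gave 0 and 0 in 22Rv1 and 6 and 2 in LNCaP. Over all rows edgeR gave 1278 and 202 in 22Rv1 and 867 and 760 in LNCaP. With all groups in the fit every antibody against input comparison and its ratios gave 0 calls. Brg1 against Sfpq gave 0 and 4 in that fit, where 343 and 287 of all rows were called. The cause of these moves was not tested.

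Deviations of same-lettered libraries correlated at 0.0152 (Brg1 and input), -0.0569 (Brg1 and Sfpq) and -0.146 (input and Sfpq) in 22Rv1, and at -0.354 (Brg1 and input) in LNCaP. These values cannot tell whether the letters mark paired libraries. The replicate block gave 15 and 41 for Brg1 against input and 36 and 34 for Sfpq in 22Rv1, 12 and 2 for Brg1 against IgG in 22Rv1, and 17 and 1 in LNCaP. Over all rows these were 6224 and 9042, 5441 and 8011, 4864 and 602, and 9656 and 343. In LNCaP the block gave 0 and 0 for Brg1 against input and 0 genes with a higher ratio. Over all rows it gave 769 and 645 there, and over all ratios 67 and 20. With the letters crossed, an alternative added after seeing the data, it gave 12 and 22. The count over all rows was not taken for the crossed letters.

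Leaving out each library in turn, with the lone library of a group assumed to vary like the other groups, gave 10 (without Brg1 A or without input B) to 17 higher for Brg1 against input in 22Rv1. In LNCaP the range was 0 to 5 higher and 0 to 11 lower, with 0 in both without either input library. Brg1 against IgG ranged from 0 to 13 higher and 0 to 11 lower in 22Rv1, and from 17 to 43 higher and 1 to 28 lower in LNCaP. Ratios called higher in LNCaP ranged from 0 to 2. Uncalled values that changed sign were RSF1.primary in LNCaP (-0.058 to 0.22) and the ratios of ACTL6A (-0.50 to 0.60) and BAZ1B (-0.25 to 0.12) in 22Rv1 and of BAZ2A (-0.20 to 0.67), CHD2 (-0.27 to 0.27) and INO80D (-0.066 to 0.41) in LNCaP. The CHD2 ratio in LNCaP was also -0.000105 at a pseudocount of 0.25. Over all alternatives, 161 of the summary counts kept within 1.5 times the reported count and 69 did not. The 161 include counts reported as 0 that stayed at 0, so this split is no measure of stability. Depth limits IgG of LNCaP, where 73 and 65 of 87 rows had at most 3 reads.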
